A study of Salmo salar with 58 samples.

Results

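Beauvericin is a cyclic depsipeptide made by moulds that grow on cereals, among them Fusarium species, and it can reach farmed fish through plant ingredients of the feed. Liver messenger RNA of Atlantic salmon (Salmo salar) was compared here between fish given the lower beauvericin dose and control fish, 12 h after an acute exposure in the living animal. The 11 libraries are the 5 liver samples labelled as low beauvericin and the 6 labelled as control, out of 58 in the series, and they were chosen by those labels alone. The other 18 liver libraries are 6 each of high beauvericin, low enniatin B and high enniatin B, and intestine was sampled in the same 5 groups. The labels give the doses only as low and high, and they name neither the route, the vehicle given to controls, nor the age of the fish. They also do not state that each numbered sample is a separate fish, so p-values here measure the spread between samples.

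Beauvericin and enniatin B are ionophores, which carry cations across membranes, and they differ in their N-methylated amino acid, a phenylalanine in beauvericin and a valine in enniatin B. The liver makes plasma proteins, bile and much of the body's lipid, and it clears foreign compounds. It is also full of blood, and red cells of fish keep a nucleus and messenger RNA, so a liver library reads red cell genes as well. In young red cells the erythropoietin receptor passes the survival signal of its hormone, and the factors GATA1 and TAL1 switch on the genes of heme and of the red cell membrane. The stress hormone cortisol acts in fish liver through glucocorticoid receptors, and immediate early genes answer within minutes to hours to many stimuli.

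The libraries held 33.2 to 39.9 M (mega) assigned reads in low beauvericin and 31.3 to 35.5 M in control. Values are normalized read counts, in which 1 read is worth 1.32 to 1.84 in low beauvericin and 1.33 to 1.78 in control. Each library's median correlation with the other liver libraries was 0.955 to 0.964 in low beauvericin and 0.948 to 0.960 in control. By that measure no library of either group stood apart, although single libraries moved the count of called genes, as given below. The 20 most abundant genes took 31.3 to 35.8% of the values in low beauvericin and at most 33.3% in control. The summed level of 13 hepatocyte markers, led by albumin and fibrinogen, was 5533466 to 7068761 in low beauvericin livers and 4376450.4 to 6280379 in control livers, against at most 487341 in low beauvericin intestine. Enterocyte markers summed to 2200 to 5007 in low beauvericin livers and 2884 to 7663 in control livers, against at least 148720 in low beauvericin intestine. Of these markers, cdx1b was at 0 in every low beauvericin and control liver library.

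A small set of genes differed, and most of it was lower after exposure. Among the genes lowered in low beauvericin livers were the erythropoietin receptor gene epor and the blood cell factor tal1, at 0.405 and 0.396 times the control mean. Among those raised were tsc22d3, a glucocorticoid-induced inhibitor of inflammatory signalling, and tisb, whose protein speeds the decay of short-lived messengers, at 2.94 and 2.22 times the control mean. In all, 32 of 25157 tested genes (0.127%) passed limma's test at a Benjamini-Hochberg adjusted p under 0.05, 5 of them higher (0.0199%) and 27 lower (0.107%) in low beauvericin. The log2 changes ran from -1.98 to -0.85 for the lowered genes (median -1.37) and from 1.04 to 2.22 for the raised ones (median 1.54), while the median over all genes tested was 0.005. In 25 of the 27 lowered and 3 of the 5 raised genes the groups did not overlap. Over all genes tested the shares without overlap were 0.493% below and 0.223% above, 0.716% in all. The called genes were chosen by their p on these same libraries, so separate groups among them follow largely from that choice. Only 8 of the 32 carry a gene name, and 24 are known here by a LOC number alone.

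The count of called genes moved with the tool and with single libraries. It was 21 (0.0835%) with edgeR, 90 (0.358%) with DESeq2 and 17 with voom, each run on the recovered reads. In simulated data for this comparison 15 of DESeq2's 143 calls were false (10.5%), against 4 of limma's 121 (3.3%). Genes were drawn independently of each other there, with 200 changed, so these rates need not hold for the real libraries. With limma the count fell to 1 without control replicate 1, 4 without low beauvericin replicate 2 and 10 without low beauvericin replicate 4. It was 10 without control replicate 6, 13 without control replicate 5, 14 without low beauvericin replicate 5 and 21 without control replicate 4. At an unadjusted p under 0.05, 1000 genes were higher (3.98%) and 1080 lower (4.29%) in low beauvericin, 8.27% in all.

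**Figure D1:**
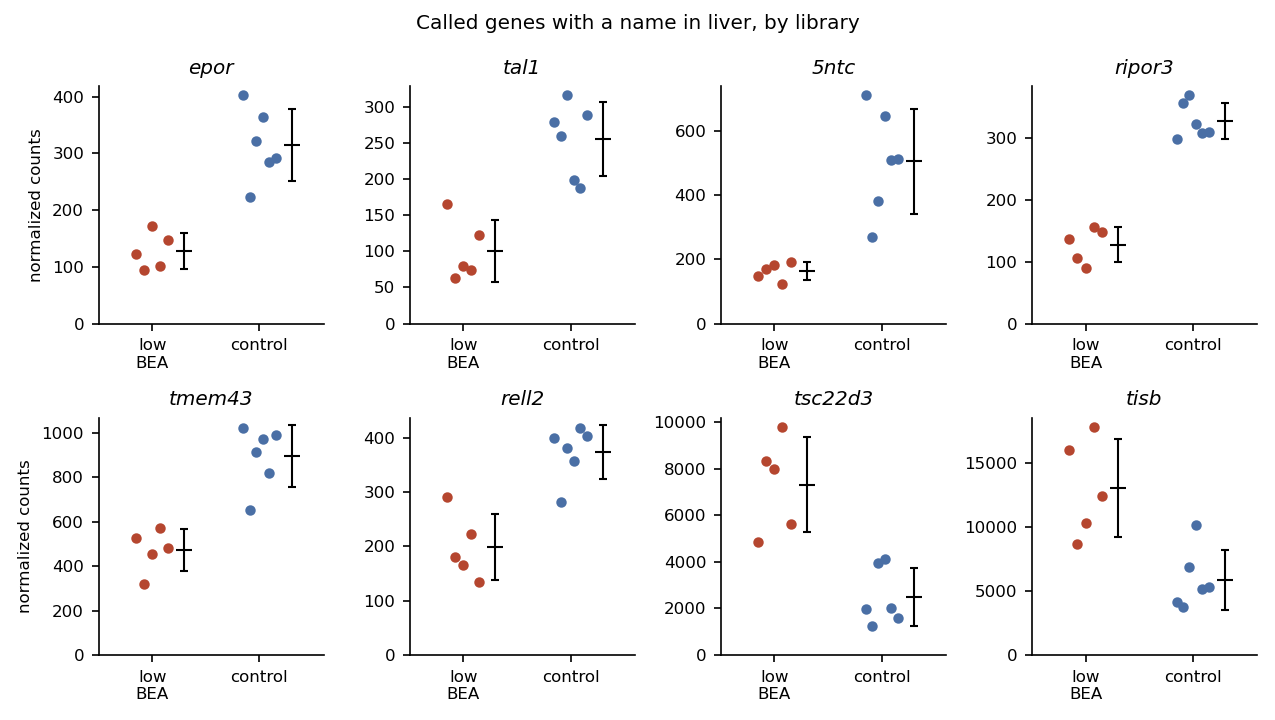
Normalized read counts of the 8 called genes that carry a name, one point per liver library, with low beauvericin (n = 5) on the left and control (n = 6) on the right of each panel. Black bars are mean and SD. The groups overlap in rell2 and tisb and are separate in the other 6 genes.

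In red cell genes, the erythropoietin receptor and TAL1 fell and several others lay lower without passing. epor (GeneID 100195206) had normalized counts of 122, 95.2, 172, 101 and 147 in the 5 low beauvericin livers, against 403, 222, 321, 364, 284 and 292 in the 6 control livers. Every low beauvericin library lay below the lowest control. The means were 128 ± 32.2 and 315 ± 63.7 (SD, n = 5 and 6), a log2 change of -1.30 ± 0.26 (SE, limma adjusted p = 0.035).

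The transcription factor gene tal1 (GeneID 100195152), needed for the formation of blood cells, had 166, 62.9, 79.9, 73.6 and 123 in low beauvericin and 280, 260, 316, 199, 188 and 289 in control. Again no library overlapped, although low beauvericin replicate 1 came close to control replicate 5. The log2 change of tal1 was -1.39 ± 0.29 (limma adjusted p = 0.045). Its partner gata1 had 235, 66.2, 163, 134 and 175 in low beauvericin and 329, 341, 450, 305, 274 and 415 in control. The groups of gata1 were separate as well, but its log2 change of -1.27 ± 0.35 did not pass over all genes (limma adjusted p = 0.26). nfe2, a further factor of red cells and platelets, had a log2 difference of -0.55 ± 0.21 with overlapping groups (adjusted p = 0.50).

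The other members of this list lay nearer to the all-gene median. The log2 differences were -0.19 for lmo2, which bridges TAL1 and GATA1, -0.17 for the receptor-bound kinase jak2b, -0.05 for gfi1b, 0.10 for the GATA1 cofactor zfpm1 and 0.39 for the growth factor kitlga. Over the 9 tested members of the erythroid list, limma and DESeq2 called 2, both lower, against 0.107% of all genes called lower by limma, while edgeR and voom called 1 (epor). In 3 of the 9 the groups were separate, all below control, against 0.493% of all genes. The list was chosen with earlier results of these data known, so these shares are a description and no test. The list's median was -0.19.

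Heme synthesis showed no common direction. alas2, the red cell form of the first and rate-limiting enzyme, had 1649, 1486, 2391, 2119 and 2276 in low beauvericin and 7521, 1781, 2820.1, 8029, 4834 and 4878 in control. The low beauvericin livers were uniform and low, while the controls spread widely and control replicate 2 lay inside the low beauvericin range. Its log2 difference was -1.17 ± 0.41 (limma adjusted p = 0.47). The other 6 enzymes measured ran from -0.25 for hmbsa to 0.65 for hmbsb, with alad at 0.01, ppox at 0.04, cpox at 0.14 and the last enzyme fech at -0.07. The median of the 7 was 0.01. None passed with limma, edgeR, DESeq2 or voom, and 1 higher (hmbsb) and 1 lower (alas2) had an unadjusted p under 0.05. Over all genes tested, 3.98% were higher and 4.29% lower at that p.

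Genes of the red cell membrane and of gas exchange were lower in 6 of 7 members, against 49.1% of all genes, with a list median of -0.68. ank1a, which encodes the ankyrin that ties the red cell membrane to its skeleton, had 237, 211, 362, 232 and 283 in low beauvericin and 786, 442, 487, 571, 572 and 727 in control. The groups of ank1a were separate, and its log2 difference of -1.16 ± 0.25 lay just outside the threshold (limma adjusted p = 0.051, DESeq2 adjusted p = 0.0039). kel, the membrane protein of the Kell blood group, was at 85.5 to 125 in low beauvericin and 140.1 to 297 in control, also without overlap (log2 difference -0.99 ± 0.35, limma adjusted p = 0.46).

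cahz, known in zebrafish as the red cell carbonic anhydrase, had 658, 649, 816, 793 and 753 in low beauvericin and 2641, 651, 1183, 1347, 1685 and 1691 in control. As for alas2, control replicate 2 lay in the low beauvericin range and the other 5 controls above it (log2 difference -0.94 ± 0.37, limma adjusted p = 0.52). The ammonia channel gene rhag (-0.45), the actin cappers tmod4 (-0.68) and tmod1 (-0.29) and the water channel gene aqp1 (0.12) had overlapping groups. By limma, edgeR and voom 0 of the 7 passed, and by DESeq2 1 (ank1a). An unadjusted p under 0.05 was found for 3, all lower, against 4.29% of all genes lower at that p. No member of the globin list could be matched by symbol, so hemoglobin is not described.

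Further red cell genes outside these lists were picked after their values were seen, so their lower values follow from the choice and add no support. The Rh blood group gene rhd averaged 43.9 ± 21.1 in low beauvericin and 124 ± 39.3 in control. The membrane skeleton gene addb, named for beta adducin, averaged 103 ± 34.9 in low beauvericin and 235 ± 58.4 in control. hem4, named for the heme enzyme uroporphyrinogen-III synthase, averaged 74.1 ± 23.5 in low beauvericin and 134 ± 34.9 in control. None of the 3 passed with limma (adjusted p = 0.13, 0.15 and 0.17), and only addb had separate groups.

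The summed level of the 5 measured red cell markers (epor, gata1, cahz, rhag and alas2) was 2592 to 3755 in low beauvericin livers, with a median of 3492. In control livers it was 3200 to 11219, with a median of 7585. Most of the sum came from alas2, which averaged 1984 in low beauvericin and 4977 in control and did not pass. All 5 low beauvericin livers lay below the control median, and the control range reached into that of low beauvericin. In bulk tissue, fewer red cells in the sample and less of these messengers per cell cannot be told apart. Of 16 tested members of the iron handling list 13 were higher, against 50.9% of all genes, with a median of 0.08 and 0 calls by limma, edgeR, DESeq2 and voom and 0 with an unadjusted p under 0.05. Over all genes tested, 3.98% were higher and 4.29% lower at that p. In the iron handling list the hormone gene hamp ranged from 472 to 6968 in low beauvericin and 1021 to 10649 in control.

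**Figure D2:**
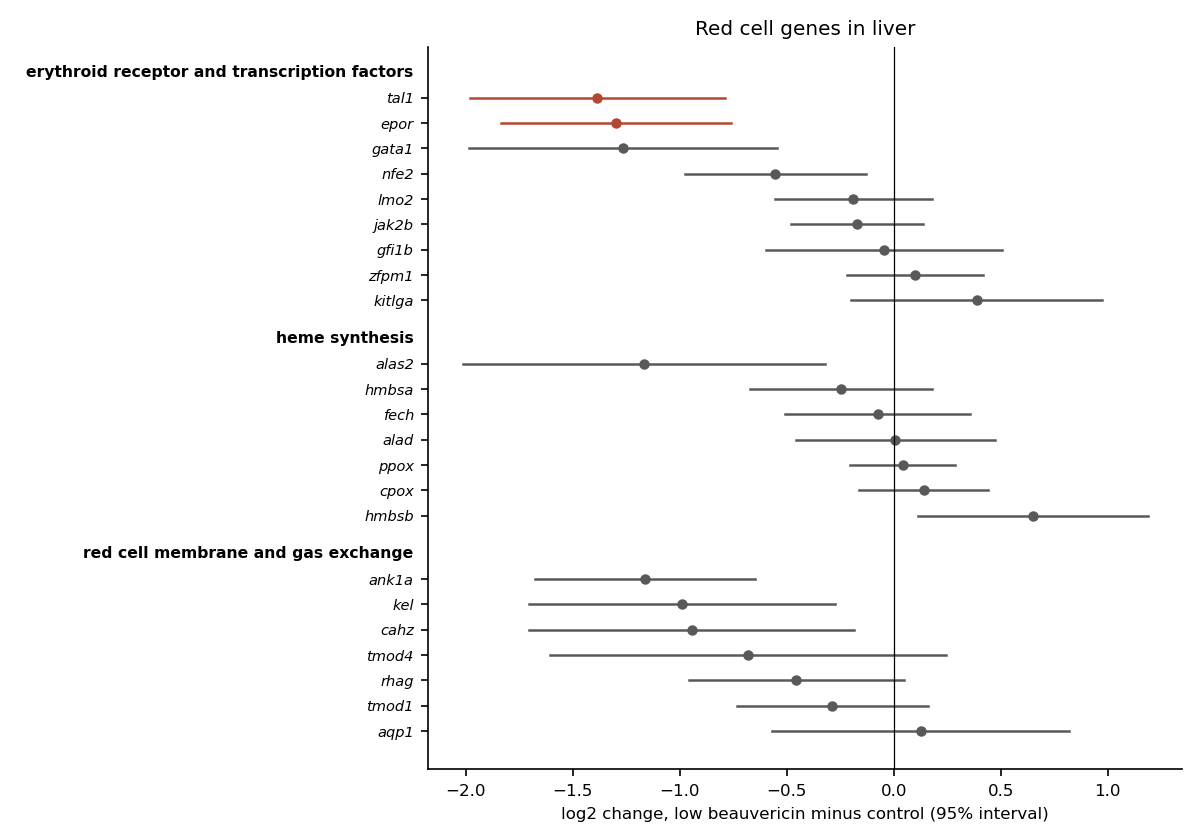
Log2 change, low beauvericin minus control, of each tested member of 3 red cell lists, with the 95% interval from limma. epor and tal1, in colour, are past the threshold, and gata1, ank1a, kel, alas2, cahz and nfe2 have intervals below 0 without passing. hmbsb of heme synthesis has an interval above 0, 0.11 to 1.19, also without passing.

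The 4 other named genes that were lowered have no list in common. 5ntc (GeneID 100194911), named for a cytosolic purine nucleotidase that breaks down purine nucleotides, had 149, 169, 182, 123 and 192 in low beauvericin, against 712, 270.1, 381, 648, 512 and 514 in control. The control values spread widely, yet all lay above the highest low beauvericin library. Its log2 change was -1.57 ± 0.31 (limma adjusted p = 0.028).

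ripor3 (GeneID 106565041) had 137, 107, 89.3, 157 and 148 in low beauvericin and 298, 355, 369, 321, 307 and 309 in control. No library overlapped between the groups. The log2 change of ripor3 was -1.37 ± 0.25 (limma adjusted p = 0.017). tmem43 (GeneID 100380459), a protein of the inner nuclear envelope, had 526.4, 321, 454, 571 and 484 in low beauvericin and 1023, 655, 914, 974, 819 and 989 in control. The groups of tmem43 were separate, and its log2 change was -0.93 ± 0.18 (limma adjusted p = 0.022).

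rell2 (GeneID 106604951), whose mammalian protein binds the tumour necrosis factor receptor RELT, had 291, 181, 166, 223 and 134 in low beauvericin and 400, 282, 381, 357, 417 and 402 in control. Low beauvericin replicate 1 lay just above control replicate 2, so the groups overlapped. The log2 change of rell2 was -0.94 ± 0.19 (limma adjusted p = 0.040). The smallest p of all genes belonged to an unnamed one, LOC106573055, at 196 to 284 in low beauvericin and 446 to 798 in control (log2 change -1.46 ± 0.21, limma adjusted p = 0.0028). The next was LOC106585259, at 219 to 360 in low beauvericin and 550 to 979 in control (log2 change -1.40 ± 0.23, limma adjusted p = 0.011).

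Most calls of single genes were lost when 1 library was left out. ripor3 passed in 8 of the 11 fits that left out a library each and was lost without low beauvericin replicates 2 or 3 or control replicate 1. tmem43 passed in 6, and was lost without low beauvericin replicates 2 or 5 or control replicates 1, 4 or 6. epor passed only without low beauvericin replicate 3 or control replicate 2, and tal1 only without low beauvericin replicate 1. 5ntc passed only without low beauvericin replicate 3 or control replicates 2 or 3, and rell2 only without low beauvericin replicate 1 or control replicate 2. tsc22d3 passed only without low beauvericin replicate 1 or control replicates 3 or 4, and tisb only without low beauvericin replicate 3 or control replicates 3 or 4. Across those fits the log2 change of epor stayed between -1.42 and -1.20 (adjusted p 0.030 to 0.14), that of tal1 between -1.59 and -1.24 (0.028 to 0.17), that of tsc22d3 between 1.48 and 1.83 (0.024 to 0.15) and that of tisb between 1.06 and 1.35 (0.014 to 0.13). With edgeR on the recovered reads, tal1 (adjusted p = 0.096), tsc22d3 (0.063) and rell2 (0.058) did not pass. With voom, 5ntc (adjusted p = 0.064), tal1 (0.066), tsc22d3 (0.058) and rell2 (0.058) did not pass. With limma, rell2 was also lost on the libraries of the 2 groups alone (adjusted p = 0.086) and tal1 without robust moderation (0.052).

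The raised genes with a name were tsc22d3 and tisb. tsc22d3 (GeneID 106612265) encodes the glucocorticoid-induced leucine zipper, a target of the glucocorticoid receptor in mammals. It had 4859, 8321, 7983, 9762 and 5601 in low beauvericin, against 1987, 1260.2, 3943, 4125, 2019 and 1572 in control. All low beauvericin livers lay above all controls, with control replicates 3 and 4 nearest to them. The log2 change was 1.65 ± 0.34 (limma adjusted p = 0.045).

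tisb (GeneID 100195422), named for the messenger decay factor TIS11B, had 15996, 8713, 10333, 17848 and 12448 in low beauvericin, against 4175, 3731, 6903, 10128, 5145 and 5287 in control. Control replicate 4 lay within the low beauvericin range and the other 5 controls below it. The log2 change was 1.2 ± 0.24 (limma adjusted p = 0.037). Fitted on the libraries of these 2 groups alone, tisb and tsc22d3 had limma adjusted p = 0.13 and 0.076, and none of the 5 raised genes passed. The entries zfp36l1a and zfp36l1b, named for the same decay factor, passed with none of limma, edgeR, DESeq2 and voom. zfp36l1a averaged 3677 in low beauvericin and 2989 in control, with overlapping groups (log2 difference 0.33 ± 0.25, limma adjusted p = 0.74).

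Of the other glucocorticoid response genes none passed with limma, and DESeq2 called 1 more (cebpd). cebpd, a transcription factor that cortisol and cytokines induce, had 8806, 4262, 3745, 6351 and 4375 in low beauvericin and 1183, 1169.7, 3024, 5457, 2349.7 and 2274 in control. All low beauvericin values exceeded 5 of the 6 controls, and control replicate 4 lay among them. Its log2 difference was 1.23 ± 0.31 (limma adjusted p = 0.15, DESeq2 adjusted p = 0.047). igfbp1a, which binds insulin-like growth factors and marks fasting and stress in fish, had 2300.1, 93.6, 714, 823 and 813 in low beauvericin and 48.3, 30.6, 593, 132, 48 and 19.4 in control. It had the largest log2 difference of the list, 3.15, but with an SE of 0.81 and overlapping groups it did not pass (limma adjusted p = 0.20).

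Several other known targets in the same list lay near 0. fkbp5, a chaperone induced by glucocorticoids, had a log2 difference of 0.13 ± 0.38, the liver enzyme gene tat 0.02 ± 0.24, the kinase sgk1 -0.10 ± 0.21, the clock gene per1b 0.04 ± 0.22 and cebpb 0.14 ± 0.18. Further from 0 were the fuel switch kinase pdk4 at -0.85 ± 0.45 and the metallothionein gene mt2 at 0.50 ± 0.45. Of the 10 tested members limma called 1 (tsc22d3, higher), against 0.0199% of all genes called higher, edgeR and voom 0 and DESeq2 2. This list too was chosen with earlier results of these data known, so its share is a description. The list's median was 0.14.

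Immediate early and messenger decay genes lay higher in 15 of 18 tested members, against 50.9% of all genes. Their median was 0.45, the highest of the lists shown. tisb was the 1 member past the threshold, with limma, edgeR, DESeq2 and voom alike, where limma called 0.0199% of all genes higher. At an unadjusted p under 0.05 another 5 were higher, which were egr1 (1.27 ± 0.60), ier2 (1.05 ± 0.40), the matrix protein gene ctgf (1.04 ± 0.34), myc (0.77 ± 0.26) and jun (0.63 ± 0.25), with limma adjusted p of 0.42 to 0.60. Of all genes 3.98% were higher at that unadjusted p. ctgf had 535, 250.1, 453, 781 and 549 in low beauvericin and 213, 141, 368, 346, 142 and 297 in control, so low beauvericin replicate 2 fell among the controls and the other 4 lay above them. junb ranged from 56.5 to 2183 in low beauvericin and 26.6 to 492.6 in control (1.09 ± 0.86). atf3 had the other sign, with a difference of -0.65 ± 0.43.

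Replicate 1 held the highest of the 5 values in 8 of the 18 immediate early genes, among them junb at 2183, fosl2 at 917 and ier2 at 679. Replicate 2 held the lowest in 9 of the 18. Among controls replicate 4 held the highest in 10 and replicate 2 the lowest in 9. Replicate 1 was also the highest low beauvericin library for cebpd and igfbp1a and for the mitochondrial carrier slc25a25a, a gene picked after its values were seen, at 12670.1 against 1716 to 4851 in the other 4. The unnamed raised genes LOC106592182 and LOC106601729 were highest there too, at 22937 and 4854, against at most 13660 and 2251 in the other low beauvericin livers. The highest controls of these genes were 6541 and 1227.

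**Figure D3:**
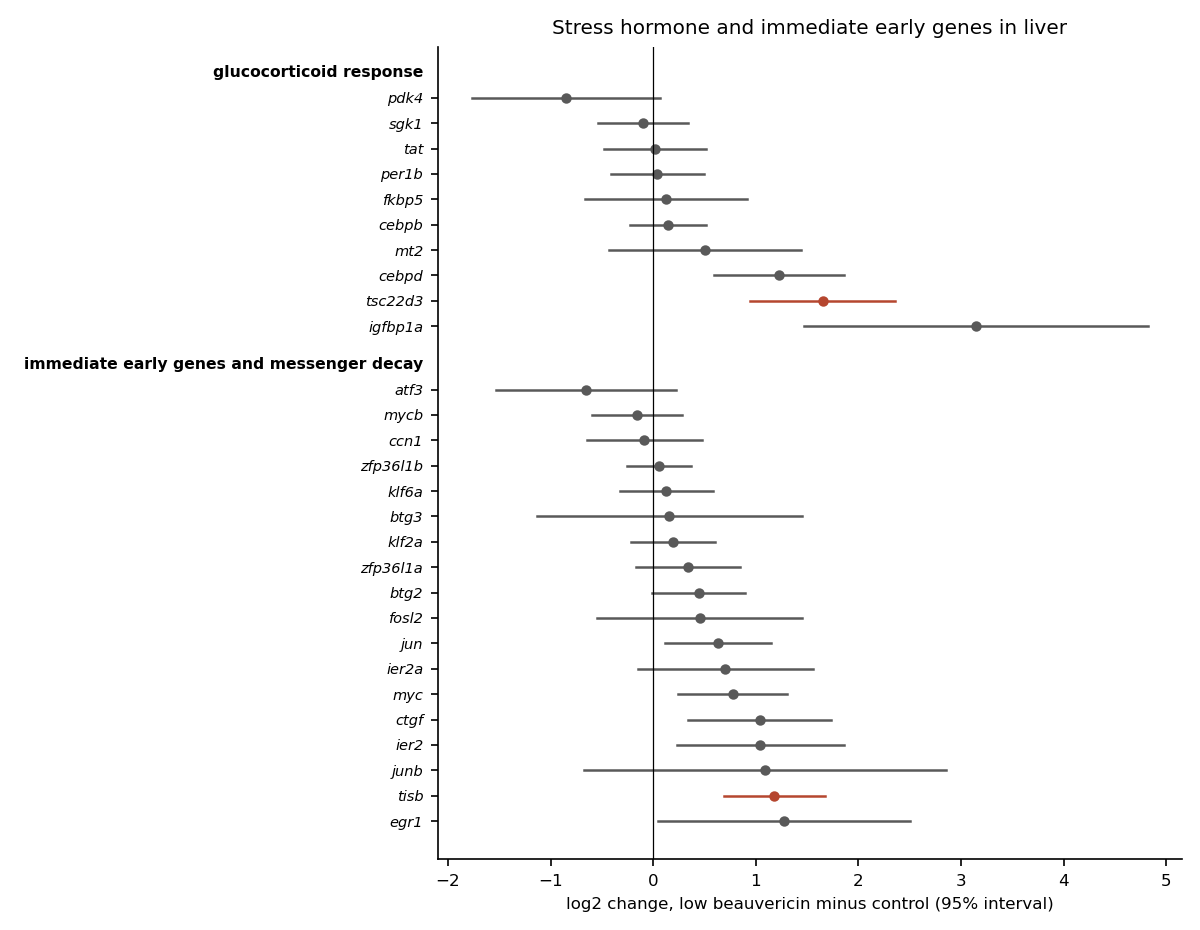
Log2 change, low beauvericin minus control, of each tested member of the glucocorticoid response list and the immediate early list, with the 95% interval from limma. tsc22d3 and tisb, in colour, are past the threshold. igfbp1a has the largest difference, 3.15, with an interval of 1.47 to 4.82. The interval of junb is wider, at -0.67 to 2.86.

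The metabolic lists and those of endoplasmic reticulum stress, heat shock and oxidative stress held no gene called by limma. Cholesterol synthesis and uptake was lower in 14 of 15 tested members, against 49.1% of all genes, with a median of -0.38. In it mvk, an early enzyme of the pathway, had 223, 260, 215, 204 and 475 in low beauvericin and 325, 502, 567, 463, 304 and 588 in control (-0.76 ± 0.23, limma adjusted p = 0.32). The late enzyme gene sc5d (-0.72 ± 0.27) and the sterol carrier gene stard4 (-0.65 ± 0.26) also had an unadjusted p under 0.05. At that p 4.29% of all genes were lower. Some enzyme genes spread widely in both groups, with hmgcs1 at 678 to 5401 in low beauvericin and 1120.5 to 6437 in control, and fdft1 at 245 to 1925 in low beauvericin and 595 to 2897 in control. Low beauvericin replicate 5 was the highest of its group in 11 of the 15 genes and replicate 2 the lowest in 11, while control replicate 4 was the lowest control in 9 and replicate 5 in 5.

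Endoplasmic reticulum stress genes were higher in 17 of 20 members, against 50.9% of all genes, with a median of 0.30. The chaperone helpers dnajc3b (0.65 ± 0.25) and sdf2l1 (0.67 ± 0.26) and the sensor atf6 (0.50 ± 0.20) had an unadjusted p under 0.05. Their limma adjusted p was 0.51 to 0.54, and 3.98% of all genes were higher at that unadjusted p. The stress factor ddit3 (-0.33 ± 0.21) and sesn2 (-0.67 ± 0.35) lay lower. In the low beauvericin group, replicate 4 was the lowest library of its group in 13 of the 20 genes, and in control replicate 1 was the highest in 12 and replicate 6 the lowest in 11. Heat shock genes had a median of 0.14, and of them the co-chaperone gene dnajb1a had separate groups, at 250.4 to 543 in low beauvericin and 154 to 235 in control (0.72 ± 0.20, limma adjusted p = 0.23).

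Cytosolic ribosomal protein genes were higher in 52 of 57 members, against 50.9% of all genes, with a median of only 0.12. Of them 1 had an unadjusted p under 0.05 (rpl29, 0.27 ± 0.12), where 3.98% of all genes were higher at that p. Amino acid breakdown and urea cycle genes were higher in 17 of 19, against the same 50.9%, with a median of 0.19. Among these ftcd, a histidine breakdown enzyme, was at 47030 to 61833 in low beauvericin and 31384 to 71260.3 in control. In the low beauvericin group, replicate 4 was the highest in 40 of the 57 ribosomal genes, and in control replicate 2 was the highest in 35 and replicate 4 the lowest in 38.

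For lists close to what ionophores are known to disturb and for lists of cell damage, the medians were 0.05 for 52 respiratory chain genes, -0.03 for 14 ion pump and calcium genes, 0.01 for 19 oxidative stress genes, 0.04 for 8 genes of foreign compound metabolism and export, 0.04 for 23 proteasome genes, -0.03 for 31 lysosome and autophagy genes and -0.09 for 13 apoptosis and p53 genes. None of their members passed with limma, edgeR, DESeq2 or voom. At an unadjusted p under 0.05 these 7 lists held at most 2 higher and 1 lower each. Over all genes tested, 3.98% were higher and 4.29% lower at that p. By symbol, the foreign compound list matched no cyp enzyme and no ugt or sult conjugating enzyme. From the pumps, the ion pump list matched only the beta subunits atp1b1a and atp1b3b. Detoxifying enzymes of those families and catalytic pump subunits are therefore not described. Among apoptosis genes gadd45ga, induced by stress and cytokines, was at 460.0 to 779 in low beauvericin and 55.9 to 1019 in control (1.41 ± 0.51, limma adjusted p = 0.48). Fatty acid oxidation (0.04), fatty acid synthesis (0.02), glucose metabolism (0.05), bile acids (0.04), plasma proteins (0.13), complement and coagulation (0.11), acute phase (0.07), interferon response (-0.06), cell cycle (-0.13), clock (-0.06) and growth axis (0.09) had no called member with limma, and DESeq2 added npas2 of the clock list (adjusted p = 0.048). Over all lists together, limma called 4 of 500 tested genes, against 0.127% of all genes, edgeR 2, DESeq2 7 and voom 2. All lists were chosen with earlier results of these data known, so a share above that of all genes may follow from the choice.

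Single metabolic genes showed separate groups without passing. lpin2, which makes diacylglycerol in lipid synthesis and was picked after its values were seen, had 199 to 308 in low beauvericin and 341 to 742 in control (-1.05 ± 0.25, limma adjusted p = 0.13). For its relative lpin1a the difference had the other sign, at 116 to 499.6 in low beauvericin, while 5 of the 6 controls lay between 25.7 and 78.1 and control replicate 4 at 481 (1.85 ± 0.68, limma adjusted p = 0.49). Just outside the threshold, and picked after their values were seen, were apoob, named for an apolipoprotein O of the mitochondrial inner membrane (-0.90 ± 0.20, limma adjusted p = 0.058), and ufc1, an enzyme that attaches the protein tag UFM1 (0.54 ± 0.12, limma adjusted p = 0.071). The plasma protease gene masp1, which starts the lectin path of complement, was at 3072 to 3744 in low beauvericin and 3994 to 5198 in control (-0.44 ± 0.13, limma adjusted p = 0.33).

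**Figure D4:**
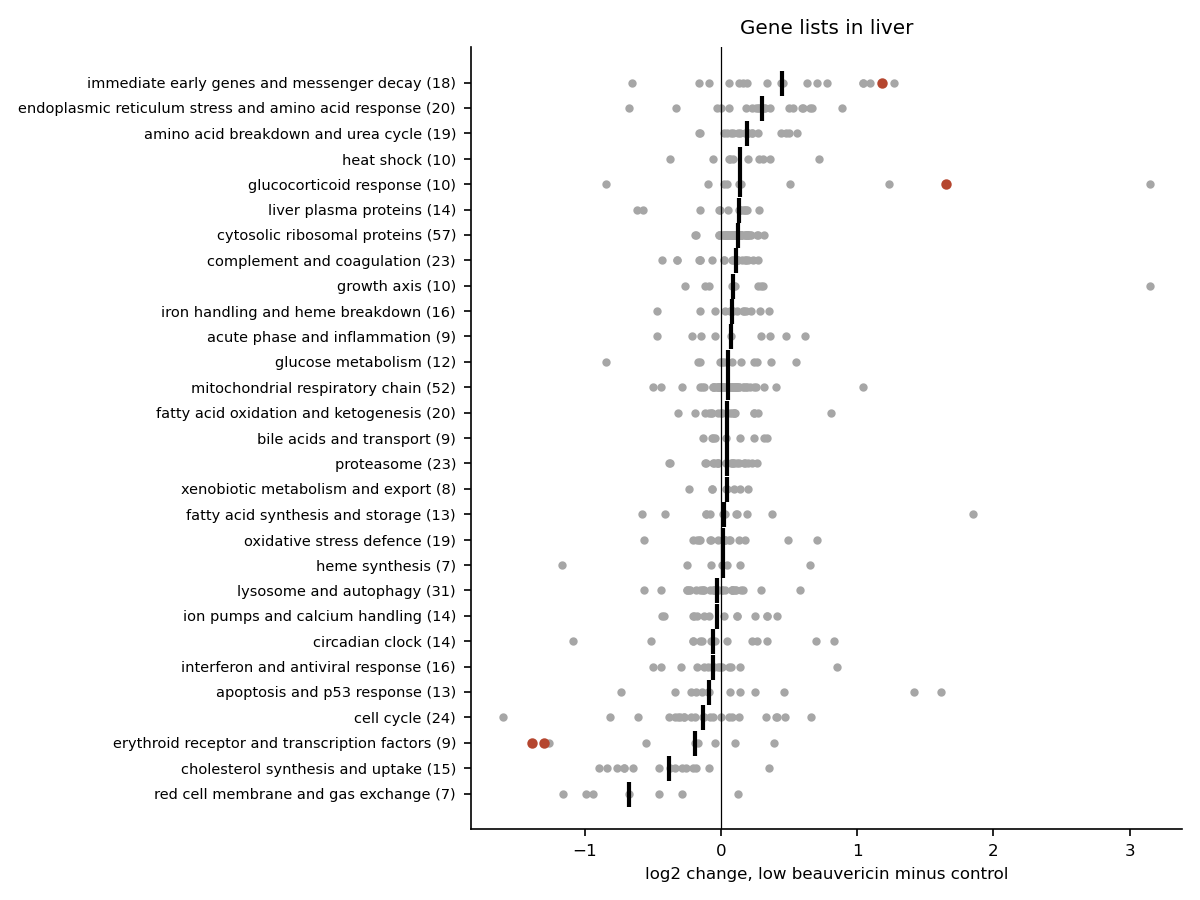
Log2 change, low beauvericin minus control, of every tested member of each gene list (grey points, with the number tested in brackets), members past the threshold in colour and the list median as a black bar. The red cell membrane list has the lowest median, -0.68, and the immediate early list the highest, 0.45.

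Summed markers of macrophages, endothelium, stellate cells and lymphocytes had overlapping ranges. The summed level of 11 macrophage and granulocyte markers was 5315 to 6232 in low beauvericin and 5598 to 8385 in control, that of 6 endothelial markers 1839 to 2297 in low beauvericin and 1883 to 2106 in control, and that of 4 stellate cell and muscle markers 16077 to 20928 in low beauvericin and 15217 to 23757 in control. T and B cell markers summed to 179.8 to 213 in low beauvericin and 152 to 226 in control. The thrombocyte gene gp9, picked after its values were seen, was at 48.9 to 71.1 in low beauvericin and 91.8 to 149 in control, without overlap (-0.81 ± 0.23, limma adjusted p = 0.29).

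At the higher beauvericin dose the called genes stood closer to control than at the lower dose. The 27 lowered genes had log2 differences from control of -0.91 to -0.21 at the high dose, and low minus high differences of -1.12 to -0.35. These genes were chosen on the low dose values, so this is a description with no test. epor averaged 315 ± 63.7 in control, 128 ± 32.2 at the low and 175 ± 51.6 at the high dose (n = 6, 5 and 6). tal1 averaged 255 ± 51.2 in control, 101 ± 42.8 at the low and 149 ± 61.4 at the high dose. tsc22d3 averaged 2484 ± 1234 in control, 7305 ± 2026 at the low and 5773 ± 1449 at the high dose. tisb averaged 5895 ± 2346 in control, 13067 ± 3816 at the low and 8498 ± 1487 at the high dose, and ctgf averaged 251 ± 100.1 in control, 513 ± 191 at the low and 212 ± 68.0 at the high dose.

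Tested directly, low minus high beauvericin gave 0 genes past the threshold with limma, with 955 (3.8%) at an unadjusted p under 0.05, and edgeR called 1 and DESeq2 8. Fitted without low beauvericin replicate 3, limma called 1. The log2 difference between the doses was -0.43 for epor (95% interval -0.97 to 0.11), -0.56 for tal1 (-1.16 to 0.04), 0.34 for tsc22d3 (-0.37 to 1.04), 0.59 for tisb (0.10 to 1.08) and 1.24 for ctgf (0.55 to 1.94). The interval lay within 1 log2 unit of 0 on both sides for 80.7% of genes tested. The named genes with the smallest p were pcy2 of phospholipid synthesis (0.64 ± 0.16), plcxd1.2 (-0.80 ± 0.20) and loxl3b, a collagen crosslinking enzyme (-0.59 ± 0.15). The gene edgeR called, LOC106601729, averaged 2334 ± 1450 at the low and 938 ± 111 at the high dose, and the low dose mean includes replicate 1 at 4854.

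Low enniatin B gives a comparison between the toxins at doses labelled low, which the labels do not state to be equal. Against low enniatin B, low beauvericin gave 0 genes past the threshold with limma, with 1005 (3.99%) at an unadjusted p under 0.05. There were 4 with edgeR, 21 with DESeq2 and 2 with voom, and limma called 2 with a pseudocount of 8, 1 without robust moderation and 2 on these groups alone. Fitted without low beauvericin replicates 2 or 3 or low enniatin B replicate 3 it called 1, 2 and 1. Among genes with a name, tsc22d3, ctgf and tisb had the smallest p. tsc22d3 averaged 7305 ± 2026 after low beauvericin and 2509 ± 1147 after low enniatin B (log2 difference 1.63, 95% interval 0.93 to 2.34, limma adjusted p = 0.20). ctgf averaged 513 ± 191 after low beauvericin and 167 ± 50.0 after low enniatin B (1.57, 0.88 to 2.27, adjusted p = 0.20), and tisb averaged 13067 ± 3816 after low beauvericin and 6206 ± 1522 after low enniatin B (1.06, 0.57 to 1.55, adjusted p = 0.27).

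epor averaged 128 ± 32.2 after low beauvericin and 152 ± 43.4 after low enniatin B, a log2 difference of -0.23 with a 95% interval of -0.77 to 0.31. The difference was -0.20 for tal1 (-0.80 to 0.39), -0.15 for alas2 (-1.0 to 0.70) and -0.09 for kel (-0.81 to 0.62). These intervals leave room for changes of either sign. Set against the same 6 controls, the 27 lowered genes had log2 differences with a median of -1.37 after low beauvericin, -0.70 after high beauvericin, -0.95 after low enniatin B and -0.69 after high enniatin B. The 5 raised genes had medians of 1.54, 0.59, 0.02 and 0.15 in that order. Both sets were chosen on the low beauvericin values, so the larger medians of that group follow largely from the choice. They do not rank the exposures. The 4 comparisons share their controls, so a control group that is high or low in a gene moves all of them alike.

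**Figure D5:**
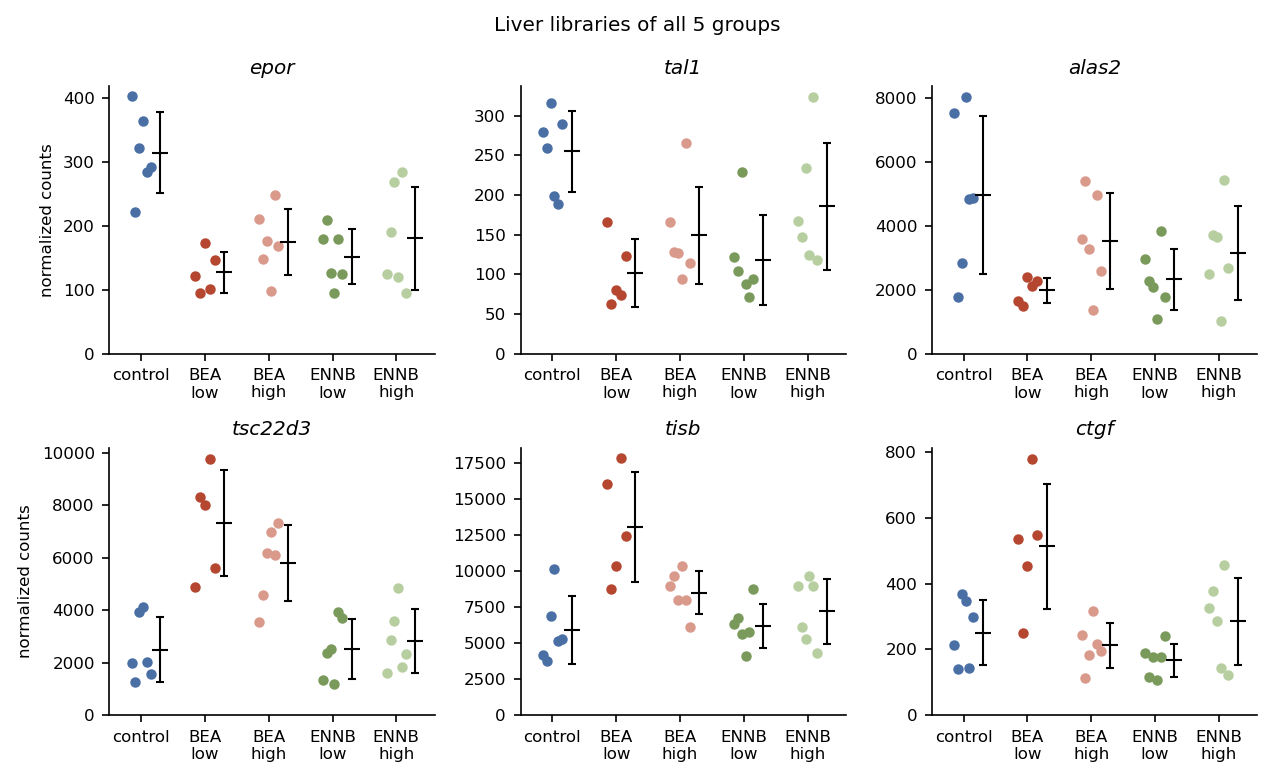
Normalized read counts of 6 genes in every liver library of control, low and high beauvericin (BEA) and low and high enniatin B (ENNB), with mean and SD as black bars. epor, tal1 and alas2 are highest on average in control, and tsc22d3 averages 7305 and 5773 after low and high beauvericin against 2484 in control.

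In the intestine of the same groups epor, tal1, tsc22d3 and tisb did not pass between low beauvericin and control, where limma called 0.0156% of genes. epor averaged 18.4 in low beauvericin intestine and 38.7 in control intestine, tsc22d3 averaged 3948 in low beauvericin and 2569 in control, and tisb averaged 5887 in low beauvericin and 3128 in control. Intestine control replicates 5 and 6 correlated with the other intestine libraries at 0.646 and 0.659. Their enterocyte markers summed to 1189 and 1987.5, against at least 121686.5 in the other controls. Without replicates 5 and 6 the log2 difference in intestine was -0.32 for epor, -0.72 for tal1, 0.73 for tsc22d3 and 0.54 for tisb. The test of liver response minus intestine response called 5 genes with limma (0.0204%), 2 higher (0.00816%) and 3 lower (0.0122%), 239 with edgeR and 0 without those controls. Of them fam78ab averaged 149 ± 22.5 in low beauvericin liver and 313 ± 80.8 in control liver, against 229 ± 11.1 in low beauvericin intestine and 163 ± 65.3 in control intestine. With one library left out at a time the count ran from 0 to 425, with 425 without intestine control 4, 50 without intestine control 1, 10 without intestine control 2, 8 without liver control 2, and 3 or fewer without intestine controls 5 or 6, any intestine low beauvericin library, liver low beauvericin replicates 1, 3 or 4 or liver controls 1, 4, 5 or 6. With intestine controls 5 and 6 kept, the differences for epor (-0.61), tal1 (-0.47), tsc22d3 (0.92) and tisb (0.05) did not pass. These values therefore also carry the intestine controls that were low in enterocyte markers.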

How the data were processed

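RNA of 58 salmon liver and intestine samples was sequenced, and the 11 liver libraries of low beauvericin and control are compared here. The authors deposited 1 table of normalized counts per gene (signal, gene counts divided by a library size factor) with 26239 genes. Per the submitters' processing notes, reads passed through Trim Galore 0.4.2, FastQC, HISAT2, featureCounts of Subread and DESeq2 1.18.1. Neither genome build nor annotation is named in those notes, and coordinates are left out. Whether counting used strand is also not given, so reads of a gene and an antisense partner cannot be told apart, and counts of near-identical salmon gene copies are uncertain. The lowest mean value of a gene in the table was 21.1, so weakly expressed genes are not described. Names came from the RefSeq table of Ssal_v3.1 by gene ID, with 24184 IDs matched and 7529 carrying a name. That table holds no product names or sequences, so unnamed LOC genes stay undescribed and promoter motifs were not searched.

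The main test was limma 3.58.1 with robust moderation on log2(value + 2) over all 29 liver libraries, for 25157 genes with a value of at least 10 in at least 5 libraries, with Benjamini-Hochberg adjustment over all of them. Fold changes are on that log2(value + 2) scale, which understates low genes. Whole reads could be recovered from the steps of the values, 99.9999% of which lay within 0.1 read of a whole number, and edgeR 4.0.16, DESeq2 1.42.0 and voom were run on them as alternative tests in R 4.3.3. In simulated data with 200 changed genes of 25157, limma found 65.7% of 2-fold and 14.9% of 1.5-fold changes, and 3.3% of its calls were false. The share of false calls was 4.2% with edgeR, 10.5% with DESeq2 and 2.6% with voom. These shares come from a single simulated set, in which limma made 121 calls against 32 in the real libraries. The shares found and the shares of false calls need not hold for the real libraries. Depth limits low genes only through the counting error, which these intervals do not separate from the spread between samples. No library was a duplicate of another of its group.

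The members and the gene lists were chosen with earlier results of these data known. Named are the called genes with a symbol (up to 12 in each direction), list members past the threshold or, where none passed, those with the smallest p, and the 3 smallest p of other contrasts. Further members of these lists are given by their values, and genes outside this rule are said to be picked after their values were seen. Replicate numbers were checked for pairing by the correlation of deviations from the group means.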

Additional observations from a re-analysis of the deposited data

Results flagged for a closer look

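Within groups, the highest or lowest library was tested for standing apart in 70 genes, which gives 140 groups, and 17 did so. Chance flags about 1 in 20 where values are normally distributed. The test used normalized counts on their plain scale, where that rate need not hold. The 70 genes share their libraries and many were named by their values, so the count is a description and no test of an excess. Far means here that the gap to the next library was large against the range of the group, whatever the fold. Among the low beauvericin livers, replicate 1 was far above the others for dnajb1a (543.3 against 250.4 to 298.6) and slc25a25a (12670.1 against 1715.6 to 4850.8). Replicate 5 was far above for mvk (474.5 against 204.3 to 259.8), ufc1 (2668.7 against 2261.2 to 2320.3) and the proteasome assembly gene psmg4 (80.6 against 55.2 to 58.1).

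Among the control livers, replicate 4 was far above the others for lpin1a (481.1 against 25.7 to 78.1) and gadd45ga (1019.4 against 55.9 to 374.3) and far below for rpl29 (2970.0 against 4146.4 to 4637.6). Replicate 3 was far above for igfbp1a (593.1 against 19.4 to 132.1), replicate 5 for ftcd (71260.3 against 31384.4 to 42424.2) and cox6a1 (1117.1 against 833.5 to 928.1), and replicate 1 for atp6v1f (480.4 against 135.7 to 246.9) and nr0b2 (895.8 against 302.1 to 486.6). Replicate 6 was far above for gp9 (148.6 against 91.8 to 110.9), elovl2 (14112.5 against 6065.1 to 8685.9) and ccnf (56.5 against 10.6 to 22.8) and far below for psmc5 (691.3 against 950.2 to 1099.7).

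The response to low beauvericin differed between liver and intestine in 5 genes, each with limma's adjusted p = 0.046 for the difference itself. As log2 liver response minus intestine response, the values were -2.44 for LOC101448031, -2.54 for LOC106604508, -1.64 for fam78ab, 1.72 for LOC106592182 and 1.88 for LOC106562750. Without intestine controls 5 and 6 they were -2.19, -1.78, -1.31, 1.67 and 1.47 in the same order, and none passed.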

How the results depend on the processing

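Against control, limma's 32 calls became 21 with edgeR, 90 with DESeq2 and 17 with voom, and 1 to 26 with 1 library left out. With the replicate block there were 47 calls (7 higher, 40 lower). Deviations of same-numbered low beauvericin and control samples had correlations of -0.182 to 0.132. These give no sign that the numbers pair the samples, but they cannot exclude it. Low minus high beauvericin, 0 with limma, gave 1 with edgeR, 8 with DESeq2 and 0 to 1 with 1 library left out. Low beauvericin minus low enniatin B, 0 with limma, gave 4 with edgeR, 21 with DESeq2, 2 each with voom, pseudocount 8 and the 2 groups alone, 1 without robust moderation and 0 to 2 with 1 library left out. The liver minus intestine count of 5 became 239 with edgeR, 3 with the replicate block, 7 with no filter on low values, 0 without intestine controls 5 and 6, and 0 to 425 with 1 library left out. The cause of these moves was not tested. None of the 32 called genes and of 62 uncalled genes recomputed under these settings reversed, and the other list members named were not recomputed. The 8 named calls held in 77 of 88 values under the other settings and in 28 of 88 with 1 library left out.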
